A study of Homo sapiens with 4 samples.

Results

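Of the 42031 H3K27ac regions that carried a peak of MDA-MB-231 replicate 2, 1917 had no peak in either Hs578T library, and these are described here. They were found by merging the peaks of 3 libraries on chromosomes 1 to 22 and X, so that peaks sharing at least 1 bp became 1 region, and by keeping the regions with a peak of MDA-MB-231 replicate 2 and of no other library. They made up 4.56% of the regions of that library and 3.79% of the 50576 merged regions. The regions were thus chosen by the presence of a peak in the same lists, and both percentages are fixed by the rule itself. Every one of these regions rests on 1 peak list from 1 library. With Hs578T replicate 1 left out the same rule gave 3803 regions, and with Hs578T replicate 2 left out it gave 2516.

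Both MDA-MB-231 and Hs578T are long-established lines of human triple-negative breast cancer, and the labels name no genetic change in them. In all 4 libraries, 2 replicates per line, the cells had been starved of serum, given TWEAK, a TNF family cytokine that signals through Fn14, at 10 ng/ml for 48 h, and then grown without it for 72 h according to the labels, while the text of the study has a longer interval. Because both lines had the same treatment and libraries of untreated cells were not analysed here, no value below measures an effect of TWEAK. Line and library cannot be told apart, since replicate 1 of MDA-MB-231 held 209 peaks against 43353 in replicate 2 and so could not serve as a second list of that line. Of the 42031 regions of MDA-MB-231 replicate 2, 37832 or 90.01% were called in both Hs578T lists too. The line labels were taken as given and were not tested. With 2 lists against 2, an exact two-sided permutation test could not go below 0.333, and no test between lines was made.

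Acetylation of lysine on the tail of histone H3 by p300 and CBP loosens chromatin and is found at active promoters and enhancers. Enhancers differ between cell types more than promoters do, and in breast cancer cells of mesenchymal character many are bound by AP-1, a dimer of FOS and JUN family proteins. A peak caller reports where the ChIP signal exceeds the local background, and a region that is weak in every library can be called in one and missed in another. For this reason the regions called only in Hs578T replicate 1, 3384 of 45728 or 7.40%, and only in Hs578T replicate 2, 2372 of 43552 or 5.45%, were built by the same rule and stand beside the 1917 regions throughout. The rule is not symmetric between the lines. Each Hs578T set leaves out regions called in the other replicate of its own line, whereas MDA-MB-231 replicate 2 met no list of its own line. Regions called in both Hs578T lists are thus in neither Hs578T set, which limits every comparison of the sets below. All 6 mesenchymal markers examined (TGFB2, FN1, VIM, ZEB1, CD44 and AXL) had a promoter peak in the list of MDA-MB-231 replicate 2 and in both Hs578T lists. Among 6 luminal markers EPCAM and KRT19 had one in MDA-MB-231 replicate 2, and 2 and 1 of the 6 had one in Hs578T replicates 1 and 2. On longer lists the difference was small, with 12 of 19 luminal and epithelial promoters and 14 of 21 mesenchymal promoters marked in MDA-MB-231 replicate 2. Among 6 blood and endothelial markers PECAM1 had a promoter peak in it. None of the promoters of these markers had a peak in MDA-MB-231 replicate 1.

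Sequences of 7 regions are printed as examples, picked from the strongest regions, from named genes and from promoters. Their fold enrichments, 3.33 to 6.49, exceed 3.31, the upper quartile of the 1917, so they are not typical of the set. All sequences are on the plus strand of hg38, and at most 300 bases at the middle of a region are given. The first 2 were among the 3 regions with the highest fold enrichment, and capitals mark a match to the AP-1 motif TGACTCA or its reverse complement TGAGTCA. They lie at chr5:20276523-20276822 in an intron of CDH18 and at chr5:23631463-23631762 in intergenic sequence near PRDM9.
CDH18 intron: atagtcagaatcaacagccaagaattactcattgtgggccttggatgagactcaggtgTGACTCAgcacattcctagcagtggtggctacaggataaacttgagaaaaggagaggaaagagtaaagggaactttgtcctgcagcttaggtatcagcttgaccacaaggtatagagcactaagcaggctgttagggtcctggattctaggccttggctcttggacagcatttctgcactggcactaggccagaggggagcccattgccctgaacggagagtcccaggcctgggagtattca
PRDM9, intergenic: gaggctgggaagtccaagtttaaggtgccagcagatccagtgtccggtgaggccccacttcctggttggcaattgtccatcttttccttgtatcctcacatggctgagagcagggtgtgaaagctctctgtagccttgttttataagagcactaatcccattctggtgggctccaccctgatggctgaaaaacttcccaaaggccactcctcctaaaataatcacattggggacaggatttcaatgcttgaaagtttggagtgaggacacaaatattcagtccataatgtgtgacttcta
The next 3 are the strongest region at CREB5, BEND5 and EGFR, genes to which several of these regions were nearest. They lie at chr7:28534110-28534409 in an intron of CREB5, at chr1:49102876-49103175 in an intron of AGBL4 near BEND5, and at chr7:55160701-55160945 in an intron of EGFR.
CREB5 intron: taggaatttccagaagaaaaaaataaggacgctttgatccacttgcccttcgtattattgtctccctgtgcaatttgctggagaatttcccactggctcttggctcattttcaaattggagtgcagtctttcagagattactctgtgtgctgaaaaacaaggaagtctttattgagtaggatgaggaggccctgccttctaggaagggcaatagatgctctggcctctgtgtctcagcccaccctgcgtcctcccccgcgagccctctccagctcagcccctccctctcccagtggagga
AGBL4 intron, near BEND5: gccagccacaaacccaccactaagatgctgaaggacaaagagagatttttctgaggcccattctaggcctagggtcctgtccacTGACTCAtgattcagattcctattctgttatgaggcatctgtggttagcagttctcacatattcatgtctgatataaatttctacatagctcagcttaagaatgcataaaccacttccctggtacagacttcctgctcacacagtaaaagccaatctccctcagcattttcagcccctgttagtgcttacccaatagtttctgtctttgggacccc
EGFR intron: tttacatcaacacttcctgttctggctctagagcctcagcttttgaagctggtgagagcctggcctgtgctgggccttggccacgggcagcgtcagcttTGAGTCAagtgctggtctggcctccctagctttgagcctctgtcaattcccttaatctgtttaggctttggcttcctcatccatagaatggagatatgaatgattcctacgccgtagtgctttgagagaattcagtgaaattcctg
The last 2 are promoter regions that lie upstream of a start site and touch no exon, at chr7:129502113-129502412 for SMKR1 and at chr17:82735291-82735511 for FN3K, and capitals mark the CG dinucleotides.
SMKR1 promoter: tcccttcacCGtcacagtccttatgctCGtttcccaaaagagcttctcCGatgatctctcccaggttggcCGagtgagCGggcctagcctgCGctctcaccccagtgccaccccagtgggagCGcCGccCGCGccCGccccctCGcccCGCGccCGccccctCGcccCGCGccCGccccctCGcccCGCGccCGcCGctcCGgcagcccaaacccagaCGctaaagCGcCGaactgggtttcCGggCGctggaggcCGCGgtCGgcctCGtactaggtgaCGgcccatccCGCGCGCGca
FN3K promoter: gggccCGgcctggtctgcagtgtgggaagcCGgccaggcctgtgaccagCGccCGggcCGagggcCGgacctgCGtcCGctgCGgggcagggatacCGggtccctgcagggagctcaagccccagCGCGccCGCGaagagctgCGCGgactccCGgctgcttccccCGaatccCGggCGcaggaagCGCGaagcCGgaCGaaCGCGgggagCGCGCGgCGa
The CDH18, AGBL4 and EGFR sequences each held 1 AP-1 match and the other 4 held none. GC content was 50.3% in the CDH18 and CREB5 sequences and 45.0% in the AGBL4 sequence, but 73.0% and 76.5% in the SMKR1 and FN3K promoters, which held 39 and 30 CG dinucleotides.

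The regions were weak within their own list. Fold enrichment, the ratio of ChIP signal to local background that MACS2 gives each peak, had a median of 2.98 over the 1917 regions (interquartile range 2.77 to 3.31, highest 6.49). Ranked among all peaks of MDA-MB-231 replicate 2, where a percentile of 100 is the highest fold, their median stood at the 9.16th percentile (interquartile range 4.23 to 17.0). Of the 1917 regions, 1022 or 53.3% were in the lowest 10% of the list and 1728 or 90.1% in the lowest 25%. In total, 5 exceeded the median fold of the list. Since presence in this list chose the regions, these ranks describe them and support no comparison of the lines.

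The single-list regions of Hs578T had like ranks in their own lists. Their median percentile was 8.77 for replicate 1 and 7.63 for replicate 2, and 4 and 3 of them exceeded the median fold of their list. Sizes of fold enrichment were not compared between libraries.

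**Figure D1:**
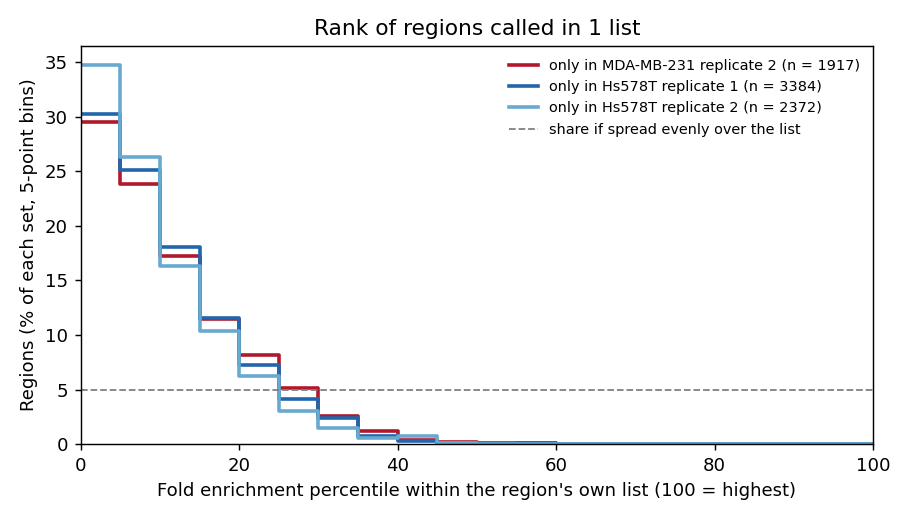
Percentage of the regions called in 1 list (y axis, bins of 5 percentile points) against the percentile of their fold enrichment among all peaks of their own list (x axis), for MDA-MB-231 replicate 2 (n = 1917), Hs578T replicate 1 (n = 3384) and Hs578T replicate 2 (n = 2372); the dashed line is an even spread. All 3 sets lie at the weak end, with medians at the 9.16th, 8.77th and 7.63rd percentile.

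Read by rank, 23.6% of the peaks in the lowest 10% of MDA-MB-231 replicate 2 were regions of this kind. In equal steps up the list the percentage was 12.7%, 5.86%, 1.71%, 0.277% and 0.115%. None of the peaks in the upper 4 of the 10 steps was such a region. Significance followed the same order: 920 of the 1917, or 48.0%, had a q-value of at most 0.01, against 91.9% of all regions of the library.

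The regions were also narrow. The 1917 regions had a median width of 400 bp (interquartile range 269 to 638 bp), whereas all regions of the library had a median of 1690 bp. A region shared with Hs578T was measured over the merged peaks of the lists, so its width can exceed that of this library's peak. In the Hs578T lists the single-list regions had a median width of 428 and 399 bp. Together the 1917 regions covered 929 kb, or 0.952% of the 97590 kb of merged regions with a peak of this library. The library's own peaks covered 81.8 Mb. Of the 1917 regions, 95.6% were narrower than 1 kb. The widest was 2527 bp long and lay in intergenic sequence 106 kb from the start of PLEKHG1, which encodes a guanine nucleotide exchange factor. It was followed by 2397 bp in an intron of CACNA2D4, with LRTM2 as the nearest start site, 2017 bp in an intron of NRG1, a ligand of ERBB receptors, 2010 bp in intergenic sequence near UBE2V2, and 1960 bp at the promoter of DNAAF11. These wide regions were not strong, and the fold percentiles of the 5 ranged from 2.89 for DNAAF11 to 24.3 for PLEKHG1.

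Regions of MDA-MB-231 replicate 1, which the rule did not use, overlapped 3 of the 1917, or 0.156% (95% Wilson interval 0.0532 to 0.459%). Over all regions of MDA-MB-231 replicate 2 the value was 62 of 42031, or 0.148%, so the 3 overlaps are near the background. The first was at chr21:45500630-45500868 in intronic sequence where COL18A1 and SLC19A1, a folate carrier, overlap, and its fold enrichment was 3.99. The second was at chr9:137355440-137355664 in an intron of EXD3 near NRARP, a feedback inhibitor of Notch signalling, with a fold of 3.64. The third was at chr17:66799069-66799367 in an intron of PRKCA near CACNG5, with a fold of 3.21. Wilson intervals here and below cover counting error only, because neighbouring regions are not independent.

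Regions on chromosome 5, far from any Hs578T peak, were among the strongest. The highest fold, 6.49 at the 57.3rd percentile, was that of the region at CDH18, a cadherin. It was 1695 bp wide, and the nearest Hs578T peak was 346 kb away. The region near PRDM9, the methyltransferase that places meiotic recombination sites, had a fold of 6.44 and lay 1458 kb from the nearest Hs578T peak.

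Of the strong regions, 3 lay close to peaks of Hs578T. The regions in an intron of MUSK, a kinase of the neuromuscular junction, and in an intron of SDK1, an adhesion molecule of the immunoglobulin superfamily, had folds of 6.002 and 5.42 and lay 0.925 and 4.82 kb from a Hs578T peak. The region near PDGFA, a growth factor of mesenchymal cells, had a fold of 5.36 and lay 4.80 kb from one. Others among the 12 strongest were nearest to ZNF32 (fold 6.08), PELI3 (5.41), YKT6 (5.41), PLXDC2 (4.95), N6AMT1 (4.92) and SLC41A3 (4.90). Their distances to a Hs578T peak were 219 kb for ZNF32, 12.1 kb for PELI3, 56.1 kb for YKT6, 352 kb for PLXDC2, 27.2 kb for N6AMT1 and 24.2 kb for SLC41A3.

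Most of the regions were in introns. By annotation, 1101 of the 1917 or 57.4% (95% Wilson interval 55.2 to 59.6%) had their midpoint in an intron, 456 or 23.8% (21.9 to 25.7%) were intergenic and 129 or 6.73% (5.69 to 7.94%) were exonic. A further 231 or 12.1% (10.7 to 13.6%) overlapped the 1 kb on either side of the start site of any gene and were counted as promoters. Of all regions of the library 31.1% (30.6 to 31.5%) were promoters, and these had a median fold at the 69.6th percentile.

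The promoter share stood above that of the Hs578T single-list regions. It was 8.60% (7.70 to 9.59%) for those of replicate 1 and 5.73% (4.87 to 6.74%) for those of replicate 2, and neither interval met that of MDA-MB-231 replicate 2. Hs578T replicates 1 and 2 come from the same line, and their intervals did not meet each other either. Libraries of 1 line thus differed in this share too, and line and library cannot be told apart in the higher value. Intergenic shares were 23.8% and 22.4% in the Hs578T sets, with intervals that overlapped 23.8%.

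**Figure D2:**
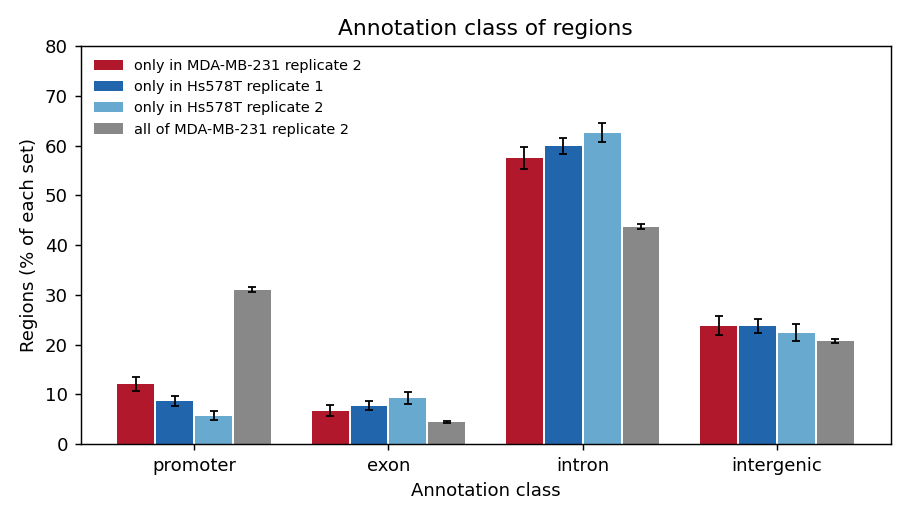
Percentage of regions (y axis) in each annotation class (x axis) for regions called only in MDA-MB-231 replicate 2, only in Hs578T replicate 1, only in Hs578T replicate 2, and for all regions of MDA-MB-231 replicate 2; bars start at 0 and error bars are 95% Wilson intervals. Single-list regions were intronic in 57.4 to 62.6% and at promoters in 5.73 to 12.1%, against 43.7% and 31.1% of all regions of MDA-MB-231 replicate 2.

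Rank and annotation were also read together. In the lowest 10% of the list by fold, 98 of the 1022 regions called in this list alone, or 9.59% (7.93 to 11.5%), were promoters. Among the 2981 regions of the same 10% that were also called in Hs578T, 217 or 7.28% (6.40 to 8.27%) were. This difference was not tested, and ranks within the 10% were not matched. Median widths were 430 bp and 940 bp, the second measured over the merged peaks of the lists.

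Promoters of named genes were marked by narrow peaks. Of the regions, 125 overlapped the start windows of 128 protein-coding genes, whereas 11595 of the 19970 such windows held a peak of this library. In 125 of the 128 windows there was no Hs578T peak. The rule largely fixes that count, because it kept only regions without a Hs578T peak. The strongest was at PELI3, an E3 ubiquitin ligase of the Toll-like receptor pathway, at chr11:66466866-66467207, with a fold of 5.41 over 342 bp. It was followed by YKT6, a SNARE of vesicle transport, with a fold of 5.41 over 416 bp, and by SMKR1 with 4.79 over 321 bp, whose sequence is given above. B3GNT4, a glycosyltransferase, had a fold of 4.71, and FN3K, a kinase that removes sugar adducts from proteins, had 4.63 over 221 bp. CFAP300, a protein of motile cilia, DOP1B, CISH, a cytokine-induced inhibitor of STAT signalling, R3HCC1 and RALGPS1, an exchange factor for Ral, followed with folds between 4.30 and 4.53. All 10 lay below the median fold of the list, at percentiles of 34.8 to 48.0, and the nearest Hs578T peak was 3.78 to 56.1 kb away.

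Promoters rich in CG dinucleotides, as most promoters of broadly expressed genes are, made up more of the promoter regions in MDA-MB-231 replicate 2 than in the Hs578T sets. At least 10 CG dinucleotides in the central 300 bp were present in 143 of the 231 promoter regions, or 61.9% (95% Wilson interval 55.5 to 67.9%), with a median of 17 dinucleotides. The value was 39.5% (34.1 to 45.2%) of the 291 in Hs578T replicate 1 and 24.3% (17.8 to 32.1%) of the 136 in Hs578T replicate 2. Over all promoter regions of MDA-MB-231 replicate 2 it was 68.1%. Outside promoters the percentage was 9.37% for regions called only in MDA-MB-231 replicate 2, and 5.88% and 4.61% for the Hs578T sets. As with the promoter share, the intervals of the 2 Hs578T libraries did not meet each other at promoters.

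Matches to the AP-1 motif were as frequent in these regions as in the merged set. TGACTCA or TGAGTCA, which are the motif on either strand, occurred in the central 300 bp of 344 of the 1917, or 17.9% (16.3 to 19.7%), and in 18.3% of all 50576 merged regions. Outside promoters it was 18.9% (17.1 to 20.9%), against 23.7% (23.2 to 24.2%) of all such regions of the library, 18.3% of those called only in Hs578T replicate 1 and 15.7% of those called only in replicate 2. In promoter regions it was 10.8% (7.44 to 15.5%), against 6.72% for all promoter regions of the library. In the lowest 10% by fold, 19.96% (17.6 to 22.5%) of the regions called in this list alone and 24.3% (22.8 to 25.9%) of those shared with Hs578T held a match. The window runs past the ends of regions narrower than 300 bp, and the lower quartile of width of the 1917 was 269 bp. A match is a run of letters and not evidence of binding.

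Most of the regions lay near a peak of Hs578T. The distance to the nearest peak of either Hs578T list had a median of 7.98 kb (interquartile range 2.45 to 24.4 kb). It was under 1 kb for 218 regions, 1 to 5 kb for 548, 5 to 10 kb for 292, 10 to 50 kb for 621, 50 to 500 kb for 220 and over 500 kb for 18. Single-list regions of Hs578T replicate 1 had a median distance of 6.28 kb to the peaks of the other 2 libraries, and those of replicate 2 had 5.996 kb.

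Regions farther from Hs578T peaks ranked higher. The median fold percentile was 6.58 in the nearest class, 8.47, 9.06 and 9.69 in the classes that follow, 14.4 at 50 to 500 kb and 27.9 over 500 kb. In the 2 Hs578T sets it went from 6.62 and 6.15 in the nearest class to 12.1 and 9.77 at 50 to 500 kb. Over 500 kb there were 2 regions in Hs578T replicate 1 and 6 in replicate 2, as against the 18 of MDA-MB-231 replicate 2.

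**Figure D3:**
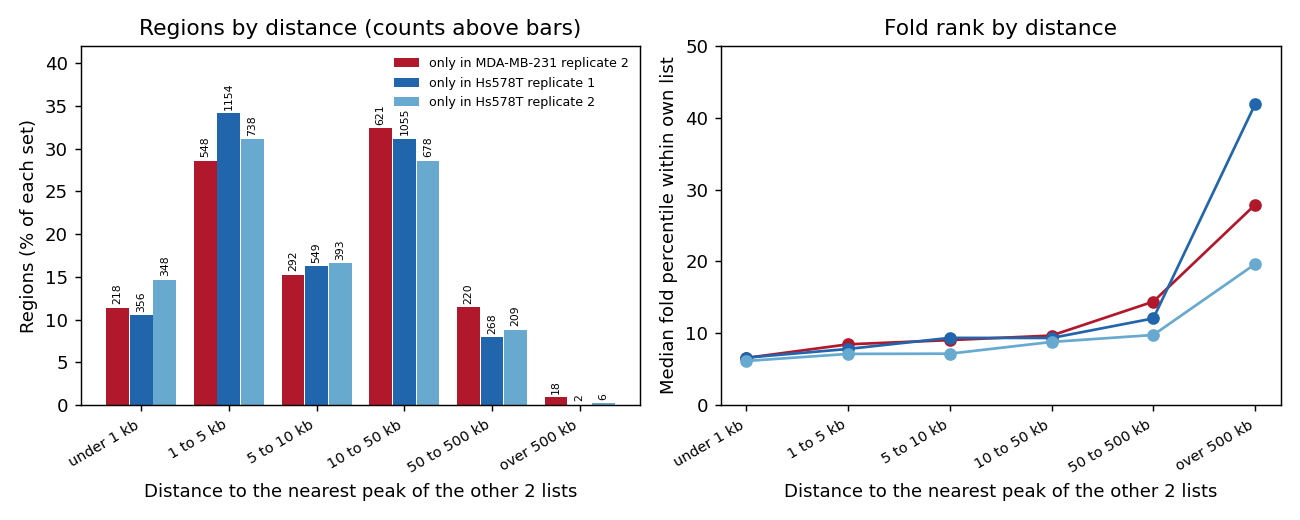
Left, percentage of the regions of each single-list set (y axis) by distance to the nearest peak of the other 2 lists (x axis), with the number of regions above each bar. Right, median fold percentile within the own list (y axis) by the same classes; the last class holds 18 regions of MDA-MB-231 replicate 2, 2 of Hs578T replicate 1 and 6 of Hs578T replicate 2, and its medians are 27.9, 41.9 and 19.6.

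At the edge of the rule a few bases decided. The region nearest to a Hs578T peak without touching one lay 1 bp away, in intergenic sequence near ANGPT1, with a fold of 2.61. The others just inside the rule were in introns of ANXA1, PDE9A and SYNJ2 and near PYGM, at 3, 4, 5 and 7 bp, with folds of 2.81, 3.51, 3.20 and 2.95. Just outside it, regions near USP10, FOXS1, HSP90AA1, PTPN1 and TBL1X were left out because of an overlap of 2, 3, 6, 6 and 7 bp, and the folds of their MDA-MB-231 replicate 2 peaks were 2.80, 2.72, 2.80, 2.57 and 2.89.

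The regions were spread over all 23 chromosomes, and as a share of the library's regions they were most frequent on chromosomes 8 and 7. On chromosome 8 they were 150 of 1857 regions of the library, or 8.08% (95% Wilson interval 6.92 to 9.41%), and on chromosome 7 they were 172 of 2298, or 7.48% (6.48 to 8.63%). The lowest value, 2.40% (1.71 to 3.37%), was that of chromosome 16. The intervals of chromosomes 21 (4.45 to 9.06%), 20 (4.41 to 7.14%), 18 (3.84 to 7.22%) and 22 (3.81 to 6.94%) overlapped those of both chromosomes 7 and 8. Chromosomes 7 and 8 together gave 7.75% (6.98 to 8.60%), against 4.21% (4.01 to 4.42%) of the regions elsewhere. The Hs578T sets went the other way, with 207 of 4140 regions or 5.0% on chromosomes 7 and 8 against 7.64% elsewhere for replicate 1, and 4.12% against 5.58% for replicate 2. Copy number of these chromosomes in the 2 lines was not measured in these files, and its part in the counts was not tested.

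**Figure D4:**
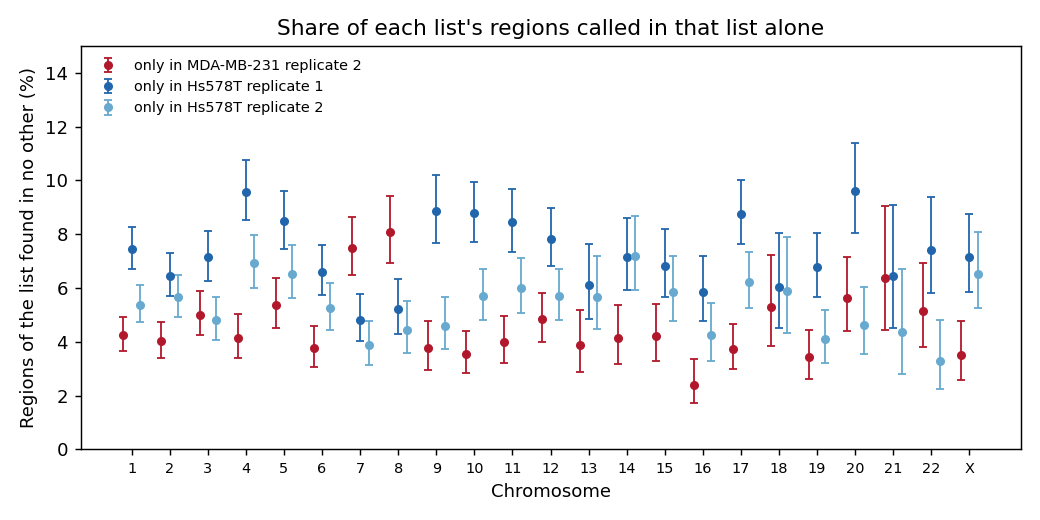
Percentage of the regions of each library that no other of the 3 lists had (y axis), by chromosome (x axis), with 95% Wilson intervals. Values of MDA-MB-231 replicate 2 are highest on chromosomes 8 (8.08%) and 7 (7.48%), where those of Hs578T replicate 1 are 5.23 and 4.82% and those of replicate 2 are 4.44 and 3.87%.

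In 20 Mb segments the percentage lay between 4.62 and 10.2% on chromosome 7 and between 5.78 and 10.9% on chromosome 8. It was above both Hs578T percentages in 12 of the 16 segments. The other 4 were 80 to 100 Mb of chromosome 7, with 4.62% against 5.10% in Hs578T replicate 2, and 0 to 20, 20 to 40 and 80 to 100 Mb of chromosome 8, with 7.41%, 5.78% and 7.27% against 7.87% and 6.98% in Hs578T replicate 1 and 7.37% in Hs578T replicate 2. The 322 regions there did not stand out by rank, with a median fold percentile of 8.74 against 9.20 for the other 1595, and 12.4% were promoters against 11.97%. They were wider, with medians of 471 and 387 bp.

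In bins of 1 Mb, 1170 of the 2592 bins with a region of the library held at least 1 of the 1917 regions, 700 of these held 1, and 25 held 5 or more. The bin with most, 8, was on chromosome 8 from 125 to 126 Mb and holds TRIB1 and NSMCE2. It had 34 regions of MDA-MB-231 replicate 2 in all, and 26 and 25 of the Hs578T replicates. Bins with 7 lay on chromosome 8 from 128 to 129 Mb, between MYC and GSDMC, in the neighbouring 127 to 128 Mb around MYC, on chromosome 7 from 28 to 29 Mb at CREB5, on chromosome 1 from 179 to 180 Mb at TOR3A and ABL2, and on chromosome 7 from 55 to 56 Mb at EGFR. Of these 6 bins, 5 are on chromosomes 7 and 8.

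By nearest start site, 1628 of the 19970 protein-coding genes, or 8.15%, had at least 1 of the regions. It was 1 region for 1399 genes, 2 for 188 and 3 or more for 41. Genes in wide intergenic tracts can collect more regions than others by this measure. The genes with most were MYC with 8, TRIB1 with 7, CREB5, ID4 and EGFR with 5 each, and BEND5, GSDMC, NR2F2 and ARRDC3 with 4 each, the last of which was named after its values were seen because it tied.

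MYC, a transcription factor that drives growth, had 8 regions 111 to 946 kb downstream of its start. Of these 7 were in introns, none of them of a protein-coding gene, and 1 was intergenic. Their folds ranged from 2.57 to 4.19 and the distance to a Hs578T peak from 0.028 to 14.9 kb. The distance to a region of MDA-MB-231 replicate 2 shared with Hs578T was 0.844 to 32.7 kb. It was largest for the region with a fold of 4.19, which lay 0.028 kb from a peak of Hs578T replicate 2 alone. In all, 51 regions of MDA-MB-231 replicate 2 and 46 and 51 of the Hs578T replicates were nearest to MYC, and 7 of those of Hs578T replicate 2 were found in that list alone. TRIB1, a pseudokinase that brings proteins to the ubiquitin ligase COP1, had 7 regions with folds of 2.93 to 3.70, 1.17 to 19.7 kb from a Hs578T peak.

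EGFR, the receptor of epidermal growth factor, had 5 regions, all in introns and all within 107 to 158 kb of its start. Their folds were 2.88, 2.77, 3.33, 2.77 and 3.15 in the order of transcription, which is the 4.22nd to the 17.3rd percentile. The nearest Hs578T peaks were 0.083 to 7.30 kb away. The body of EGFR held 16 regions of MDA-MB-231 replicate 2 and 11 of each Hs578T replicate, and the peak at its start was called in all 3 lists.

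CREB5 was different from MYC and EGFR in that the 5 regions had no Hs578T region beside them. CREB5 encodes a transcription factor of the basic leucine zipper class. Its 5 regions were in its own introns, 649 to 1046 bp wide, and had folds of 3.33, 3.81, 3.92, 3.73 and 2.82 in the order of transcription, which is the 5.27th to the 28.7th percentile. The distance to a Hs578T peak was 112 to 276 kb. No region of either Hs578T list had CREB5 as its nearest gene, although the gene body, 527 kb long, held 1 region in each. With a sixth region near JAZF1 they formed a run on chromosome 7 of 6 regions over 394 kb, chr7:28179647-28573710, with no Hs578T region between them.

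**Figure D5:**
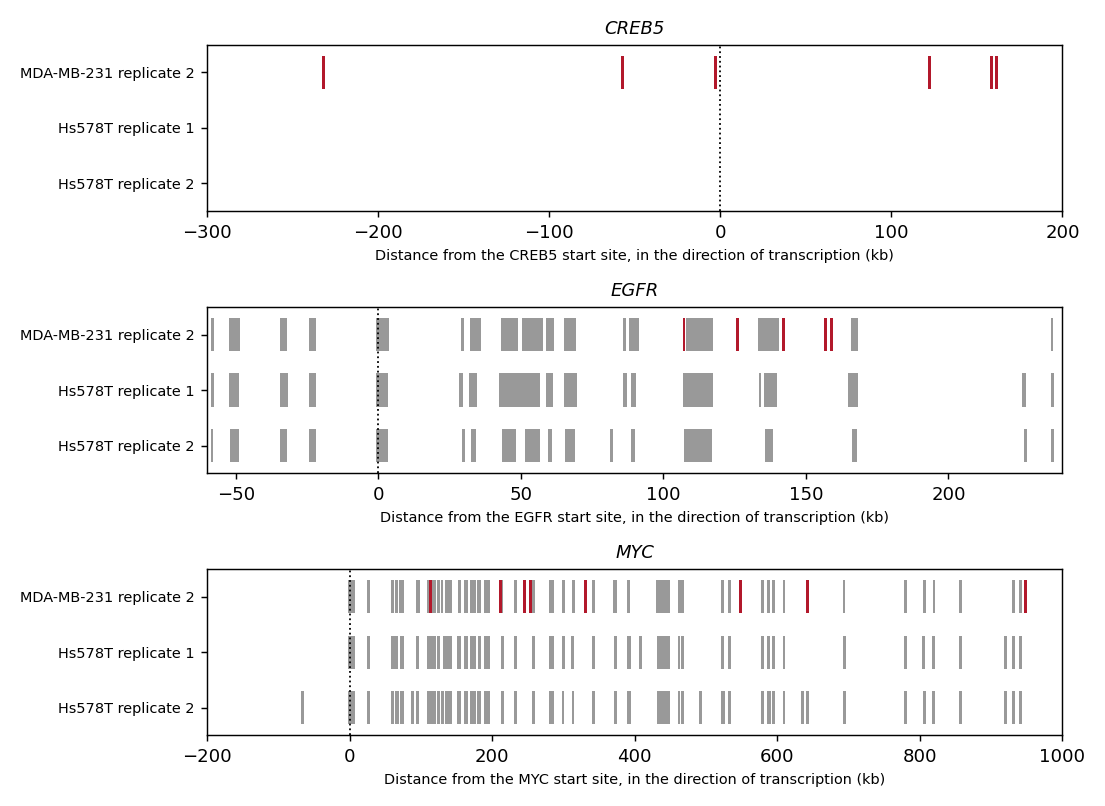
Peaks of MDA-MB-231 replicate 2 and both Hs578T replicates (rows) by distance from the start site of CREB5, EGFR and MYC (x axis, kb, in the direction of transcription; dotted line, start site); red marks regions called only in MDA-MB-231 replicate 2, grey all other peaks, and narrow peaks are drawn wider than they are to be seen. In the CREB5 window the list has 6 peaks, all red, and Hs578T has none, whereas at EGFR 5 of 22 and at MYC 8 of 53 are red.

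A second run of 6 regions spanned 1771 kb of chromosome 1, chr1:47576235-49347638. Of these, 4 were nearest to BEND5, a BEN domain protein, and in introns of AGBL4, a carboxypeptidase gene of 1491 kb that held no region of either Hs578T list. Their folds were 2.89, 4.36, 4.13 and 3.10 by position and they lay 1127 to 1440 kb from a Hs578T peak. PRDM9 had a run of 3, with folds of 3.16, 4.68 and 6.44 and distances of 1458 to 1623 kb. Over all the regions there were 98 runs of 2, 11 of 3 and 2 of 6, which held 241 or 12.6% of the regions. The Hs578T single-list regions stood in runs of 2 or more in 15.04% and 11.2%, and their longest runs had 4 and 3 regions.

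Of the 41 genes with 3 or more of the regions, BEND5, CREB5 and PRDM9 were the 3 with no Hs578T region nearest to them. By the same count there was 1 gene, SLC2A10, of 131 for Hs578T replicate 1 and none of 64 for replicate 2. Genes with at least 1 of the regions and none of the other 2 lists numbered 153 of 1628. In the Hs578T sets they numbered 173 of 2604 and 120 of 1972. ID4, an inhibitor of helix-loop-helix factors, had 5 regions with folds of 2.66 to 3.66 at 5.45 to 90.02 kb from a Hs578T peak, beside 6 and 5 regions of the Hs578T replicates. The 4 regions of GSDMC, a gasdermin that forms membrane pores, had folds of 2.91 to 3.83, those of NR2F2, a nuclear receptor of mesenchymal cells, had 2.91 to 3.34, and those of ARRDC3, an arrestin domain protein, had 2.39 to 3.16.

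Counted by the gene whose intron held the midpoint, CREB5, EGFR and ZFPM2, a cofactor of GATA proteins, had 5 regions each. AGBL4, ABL2, a tyrosine kinase of the cytoskeleton, TIAM1, an activator of RAC, MYO10, a myosin of filopodia, and PDE4D, a phosphodiesterase of cyclic AMP, had 4 each. Apart from CREB5 and AGBL4, these genes held between 7 and 20 regions of Hs578T replicate 1.

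Genes of the TWEAK and NF-κB pathway were next looked up. Of 20 genes, 5 were nearest to at least 1 region, against 8.15% of all protein-coding genes. A single-list region of Hs578T replicates 1 and 2 was nearest to 7 and 6 of them, against 13.0% and 9.87% of all protein-coding genes. They were IKBKB (fold 2.89) and IKBKG (3.48), subunits of the IκB kinase, MAP3K14 (2.74), the kinase that starts the noncanonical arm, NFKB2 (2.95), the subunit processed in that arm, and BIRC3 (2.75 and 3.15), a ubiquitin ligase that restrains it. None of these regions was at a promoter, and all 20 promoters had a peak in each of the 3 libraries. Of 13 AP-1 and small MAF genes none was nearest to a region, against 8.15% of all protein-coding genes. In the Hs578T sets it was 3 and 1, or 23.1% and 7.69%, against 13.0% and 9.87% of all protein-coding genes.

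The RAS pathway and its feedback genes had regions in all sets. In MDA-MB-231 replicate 2 they were nearest to 8 of 19 genes, or 42.1%, against 8.15% of all protein-coding genes. In Hs578T replicate 1 it was 8, against 13.0% of all protein-coding genes. For Hs578T replicate 2 it was 9, or 47.4%, against 9.87%. The share stood above that of all protein-coding genes in every set. Among them were the feedback phosphatases DUSP4 (2.99), DUSP5 (3.50 and 2.71) and DUSP6 (2.79), the inhibitor SPRY4 (2.77 and 2.93), the transcription factors ETV4 (3.16) and ETV5 (2.87), and PHLDA1 (2.54).

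Mesenchymal genes were nearest in 4 of 21 cases, against 8 and 5 in the Hs578T sets. CDH2, N-cadherin, had 3 regions with folds of 3.52, 3.72 and 3.80, at 4.60 to 19.3 kb from a Hs578T peak. SNAI1, which represses E-cadherin, had 1 at its promoter with a fold of 3.30 over 224 bp. TWIST2 (3.19) and ZEB2 (3.25), also repressors of epithelial genes, had 1 each, that of ZEB2 1005 kb away from the start. Luminal genes were nearest in 3 of 19 cases, or 15.8%, namely ESR1 (2.87), GRHL2 (2.74) and GATA3 (2.70), none at a promoter. In the Hs578T sets it was 2 and 3, or 10.5% and 15.8%. The basal gene TP63 had 2 regions (3.03 and 2.88), the only 1 of 12 genes, or 8.33%, near the 8.15% of all protein-coding genes. In the Hs578T sets it was 1 and 0 of 12, or 8.33% and 0%.

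Of 19 inflammatory cytokine genes 2 were nearest to a region, or 10.5%, against 8.15% of all protein-coding genes. In each Hs578T set it was 1, or 5.26%, against 13.0% and 9.87% of all protein-coding genes. IL1A, interleukin 1α, had a region over its start site at chr2:112784245-112784640, with a fold of 2.83 and 8.63 kb from the nearest Hs578T peak. CXCL8, interleukin 8, had a region of 924 bp with a fold of 3.88, 56.8 kb from its start and 13.3 kb from a Hs578T peak. NAMPT, which makes the NAD precursor that salvage depends on, was 1 of 10 NAD genes, with 2 regions at 133 and 164 kb from its start and folds of 2.63 and 2.83. The Hs578T sets had 2 and 1 of the 10, and the same shares of all protein-coding genes apply.

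Of 17 genes of invasion proteases and their inhibitors, 4 were nearest to a region, or 23.5% against 8.15% of all protein-coding genes. In the Hs578T sets it was 0 and 1, or 0% and 5.88% against 13.0% and 9.87% of all protein-coding genes. Among them, ADAM12 had 1 at its promoter with a fold of 2.74 over 271 bp. ADAM9 (2.96) and TIMP3 (3.10) had 1 each. Of 16 neuronal genes 2 were nearest to a region, or 12.5%, against 8.15% of all protein-coding genes, among them SNAP25, of the synaptic vesicle fusion machinery, with 1 (fold 2.58). In the Hs578T sets it was 0 of 16. Of 15 blood and endothelial genes none was nearest, against 2 and 5, or 13.3% and 33.3%, in the Hs578T sets. The shares of all protein-coding genes were again 8.15%, and 13.0% and 9.87% in the Hs578T sets. With 10 to 21 genes a list, these counts are descriptions and were not tested.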

How the data were processed

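H3K27ac ChIP-seq peak lists of 4 libraries were used, 2 per cell line, grouped by sample title. The authors trimmed reads (Trimmomatic), mapped them to hg38 (Bowtie2), called peaks per library with MACS2 against input, and removed blacklisted regions; versions and settings were not given in the sources used here. Per the column layout, each deposited peak has a score, a fold enrichment (a ratio to local background) and −log10 p and q values. Read counts were not used here, so depth is unknown. Peak lists were merged, ranked and annotated in Python 3.11.15 with pandas 2.3.3, using GENCODE release 44 (canonical start sites, promoter window 1 kb), and no peak passed a chromosome end. Merging and distances were tested on simulated lists. Named were the 12 strongest and 5 widest regions, the 10 strongest promoters, the 8 genes with most regions, by start site and by intron, the 5 fullest bins, the 5 regions on each side of the rule's edge, and genes of 11 lists. The members and lists were chosen with earlier results of these data known. Windows for AP-1 matches and CG dinucleotides were 300 bp around the midpoint (500 bp in 1 alternative for AP-1). They ran past the ends of narrower regions. Sequence came from the hg38 genome given, in which repeats are not marked. A few items that this rule names are not reported here.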

Additional observations from a re-analysis of the deposited data

Results flagged for a closer look

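On sequences outside chromosomes 1 to 22 and X, which no comparison above used, 36 of 74 merged regions were called only in MDA-MB-231 replicate 2, and 34 of these 36 were also called in MDA-MB-231 replicate 1. They lay on 10 sequences, with a median fold enrichment of 3.43 and a highest of 6.71. Hs578T replicates 1 and 2 had 3 and 2 regions of their own there. Of the 32 other regions of MDA-MB-231 replicate 2 there, 5 were also called in replicate 1. Replicate 1 had 109 of its 318 peaks on these sequences, and on the chromosomes it overlapped 3 of 1917 regions. These shares were not tested against each other. The deposited lists give no copy number for these sequences, and the cause was not tested.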

How the results depend on the processing

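The number of regions changed with the settings of the rule. Of 35 recomputed values of 9 results, 19 stayed within 1.5 times the count or within the 95% interval of the share or median. The other 16 moved. Without 1 Hs578T replicate there were 2516 to 3803 regions (the higher without replicate 1), with 3 to 5 overlapped by MDA-MB-231 replicate 1, 2069 to 2936 nearest genes, a median percentile of 9.5045 to 11.1, a width of 421 to 452 bp, 10.9 to 15.3% promoters, 23.9 to 24.4% intergenic, a distance of 8681 to 8699 bp and an AP-1 share of 18.1 to 18.7%. The strongest 50% of the list by score left 5 regions. A q-value of at most 0.01 left 920, with a median percentile of 17.4 and 14.2% promoters. Ranked by score, the median percentile was 7.92. Promoters were 18.1% with a 2.5 kb window and 14.8% with start sites of all basic transcripts, and AP-1 shares were 26.9% in the central 500 bp and 22.4% over whole regions. Merging within 1 kb (1681), removal only by an overlap of 50% (2855), equal numbers of top peaks (2476), all sequences (1953) and all 4 lists (1917) kept the number within 1.5 times. The values without a Hs578T replicate of the overlap, intergenic, AP-1 and nearest gene results, and the percentile and AP-1 share at a q-value of at most 0.01, were chosen after seeing the data. Without MDA-MB-231 replicate 2 no region remains, so no value was given. The share of repeat bases was not run. No paired analysis was possible because each region has 1 list and no test was made.

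Depth is unknown, and absence from a list does not show that acetylation is absent. Replicate 1 of MDA-MB-231 was too small to repeat the regions.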
